A study of Ictidomys tridecemlineatus with 15 samples.

Results

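Cones and rods of the 13-lined ground squirrel (13LGS) retina were compared within the same single-cell libraries from P12 to P21. The cells annotated Cone and the cells annotated Rod in the deposited cell table were taken from the 4 libraries of these ages, which gave 2896 cones and 150 rods, 3046 of the 18555 cells in these libraries and of the 53394 cells in the whole series. The study profiled the whole retina from before birth to P21 on the 10x Chromium 3′ v3.1 platform, which tags every captured mRNA with a unique molecular identifier (UMI), so that counts stand for molecules. The animals were captive-bred and no genetic change or treatment is labelled. P12 retina was sampled in 2 libraries, P12a and P12b, and P17 and P21 retina in 1 library each. The letters a and b only name the libraries. Retinas had been methanol-fixed or flash-frozen, and which of these, or whether cells or nuclei were captured, is not given per library. The labels do not say that libraries came from separate animals. P-values can therefore reflect at most the spread between these libraries, which may be technical.

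Cones and rods are the light-sensing neurons of the retina. Both turn light into an electrical signal through an opsin, a G protein, a phosphodiesterase and a cyclic-nucleotide-gated channel, but with largely separate sets of genes for these parts, and they share the machinery of the outer segment and of the photoreceptor synapse. Cones respond in bright light and carry colour vision, while rods are sensitive enough for dim light. The 13LGS is active by day and its retina is dominated by cones.

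The matrix held 34181 gene rows and the list of gene names 30265 entries without row numbers, so the files as held here do not pair a name with a row. Genes are therefore given by their row number, counted from 1, and at most 2 rows in each direction are described per comparison. For the same reason the annotation could not be checked against the defining genes of cones and rods, such as the opsins. Only its agreement between libraries was checked instead. Each cone or rod was assigned to the nearest of 7 annotated types by its correlation with mean profiles of the other 3 libraries. Of the 2896 cones, 2826 (97.6%) fell nearest the cone profile, 3 nearest the rod profile and 67 nearest another type. Of the 150 rods, 140 (93.3%) fell nearest the rod profile, 7 nearest the cone profile and 3 nearest another type. All 67 cones that fell nearest another type were in the P12 libraries. The authors named the types from expression in these same cells, so rows that differ between cones and rods include those that set the annotation. The profiles were built from the same labels, so high agreement was likely from the start. It shows labels that are alike across libraries, not that the named cells are cones or rods.

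The number of rods limited the precision. The cones of P12a, P12b, P17 and P21 numbered 570, 384, 405 and 1537, with 1750740 to 3983782 UMIs summed per library. The rods numbered 16, 14, 31 and 89, with 37967, 43425, 78941 and 163975 summed UMIs. A row with 3 UMIs in a rod sum stood at 79.0, 69.1, 38.0 and 18.3 CPM (UMIs per 1000000 UMIs of the sum) in P12a, P12b, P17 and P21, so rows below these levels were hardly measurable in rods. Of the 18524 distinct cell barcodes in the 4 libraries, 31 occurred in more than 1 library, and 10 cones or rods carried one of them.

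The median cone held more UMIs than the median rod in all 4 libraries, while the ranges of single cells overlapped. Cones had medians of 3256, 5256, 3144 and 2362 UMIs in P12a, P12b, P17 and P21. Rods had medians of 2052, 2493, 2372 and 1891 UMIs. The log2 ratio of the medians was 0.62 ± 0.34 (SD, n = 4), a 1.53-fold difference, and ranged from 0.32 to 1.08. By an exact permutation test that flips the sign of each library's ratio (two-sided), p was 0.125, the smallest value that 4 libraries allow. Fewer UMIs per cell may be less RNA or poorer capture, and these cannot be told apart here.

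A small share of the tested rows was called different between cones and rods, and the low number of rods limited how many could be called. Counts were summed per library and type and tested with edgeR's quasi-likelihood test with the library as a block. In this fit the spread of a row was drawn largely from other rows (13.18 prior against 3 residual degrees of freedom). The p and SE of a row are therefore not a measure of its own spread between libraries. Of 8813 tested rows, 238 (2.7%) passed a Benjamini-Hochberg adjusted p of 0.05, with 154 (1.75%) higher in cones and 84 (0.953%) higher in rods. At an unadjusted p below 0.05 in the same test there were 1102 rows. At least 2-fold differences were found in 142 of the rows higher in cones and in 79 of those higher in rods. The count depended on the fit. The default quasi-likelihood fit of the same tool, which drew the spread of a row wholly from other rows, called 366 rows, and DESeq2 called 133. The balance of directions depended on the fit as well, with 59 rows higher in cones and 74 higher in rods in DESeq2 and 95 and 98 in limma-voom. It also depended on the filter on low counts. With a mean of at least 50 CPM required, the same edgeR fit called 266 of 3436 rows, 138 higher in cones and 128 higher in rods. Without the library block, 40 rows passed. Leaving out P12a, P12b, P17 or P21 left 140, 121, 69 or 97 called rows.

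**Figure D1:**
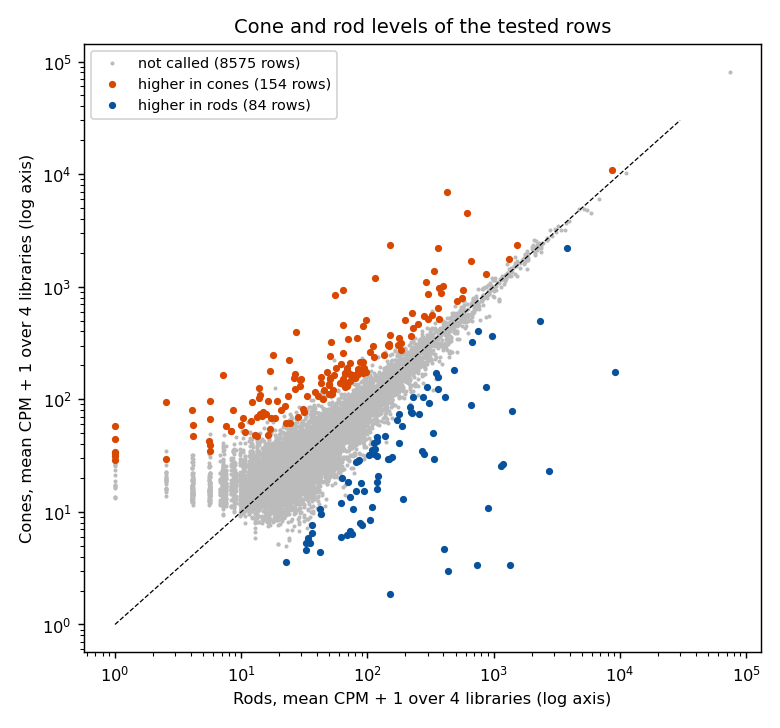
Mean CPM + 1 over the 4 libraries in rods (x axis, log scale) and in cones (y axis, log scale) for the 8813 tested rows, with the 154 rows called higher in cones in orange, the 84 called higher in rods in blue and the rest in grey. The dashed line marks equal levels, and points at the far left had no rod UMI in any library.

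The called rows ran from low to very high levels. The rows higher in cones had a median of 163 CPM in cones, with a range of 27.8 to 10855 CPM, and 13 of them reached 1000 CPM. The rows higher in rods had a median of 146 CPM in rods, with a range of 21.6 to 9119 CPM, and 8 of them reached 1000 CPM. The median log2 difference, cone minus rod, was 2.04 over the rows higher in cones and −2.41 over the rows higher in rods, against 0.15 over all tested rows. Rods contributed few molecules to the rows higher in cones. Over the 4 libraries together, 28 of these 154 rows had 3 or fewer rod UMIs and 6 had none. With those 6 rows set to the bound that 3 rod UMIs over the 4 libraries give, the median was 1.97. Every row higher in rods had at least 7 rod UMIs.

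The direction held across libraries for most called rows. The cone CPM exceeded the rod CPM in 4 of 4 libraries in 141 of the 154 rows called higher in cones (91.6%, against 10.7% of all tested rows). The rod CPM exceeded or equalled the cone CPM in all 4 libraries in 75 of the 84 rows called higher in rods (89.3%, against 7.72% of all tested rows). These counts used the libraries that made the calls. A reading that does not share libraries with the calls is given further on.

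Among the rows higher in cones in every library and with at least 200 CPM in each cone sum, 33 in number, row 4062 differed most. It had 605, 306, 667 and 2183 CPM in the cones of P12a, P12b, P17 and P21. Rods of the same libraries had 132, 0, 76 and 42.7 CPM, from 5, 0, 6 and 7 UMIs. The cone and rod values did not overlap, and the P21 cones stood highest. The log2 difference was 4.51 (SE 0.39, edgeR adjusted p = 5.72e-07). Its level was 940 ± 844 CPM in cones and 62.6 ± 55.6 CPM in rods (SD, n = 4). In the 4 inner retinal types it lay between 0.882 and 28.1 CPM in every library.

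Row 4503 was likewise higher in cones than in rods in every library. Its cone CPM were 624, 372, 557 and 1815 in P12a, P12b, P17 and P21. Its rod CPM were 132, 0, 25.3 and 61.0, from 5, 0, 2 and 10 UMIs. Again no rod value reached a cone value, and 0 UMIs among the 43425 of the P12b rods allows up to 69.1 CPM. The log2 difference was 4.50 (SE 0.34, edgeR adjusted p = 1.23e-07).

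In rods, row 8920 differed most among 18 rows that met the same rule. It had 527, 253, 291 and 1903 CPM in the rods of P12a, P12b, P17 and P21, from 20, 11, 23 and 312 UMIs. Cones had 3.39, 4.55, 1.14 and 0.502 CPM, from 9, 12, 2 and 2 UMIs. Rods and cones were far apart in each library, with the highest rod value and the lowest cone value both at P21. The log2 difference was −8.17 (SE 0.57, edgeR adjusted p = 8.44e-08). Row 8920 was almost restricted to rods among the 6 types, with at most 1.31 CPM in any sum of amacrine, bipolar, Müller glial or ganglion cells.

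Row 13577 was the more abundant of the pair higher in rods. Its rod CPM were 869, 1151, 1887 and 7050 in P12a, P12b, P17 and P21. Its cone CPM were 19.6, 23.5, 26.8 and 18.6. The rod values spread widely, with P21 highest, while the cone values lay close together. The log2 difference was −6.44 (SE 0.44, edgeR adjusted p = 8.44e-08). The cone level of row 13577, 22.1 ± 3.8 CPM (SD, n = 4), lay above its level in the amacrine cells of each library, which was 1.57, 1.36, 1.99 and 11.5 CPM. At P21, however, its 18.6 CPM in cones was below the 20.9 CPM in bipolar cells and the 19.4 CPM in Müller glia, so cones did not stand above the inner types there. Both rows higher in rods missed the threshold when edgeR's robust spread estimate, which lets single rows keep a large spread, was switched on (adjusted p = 0.0579 for row 8920 and 0.0898 for row 13577). Their log2 differences were unchanged at −8.17 and −6.44.

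**Figure D2:**
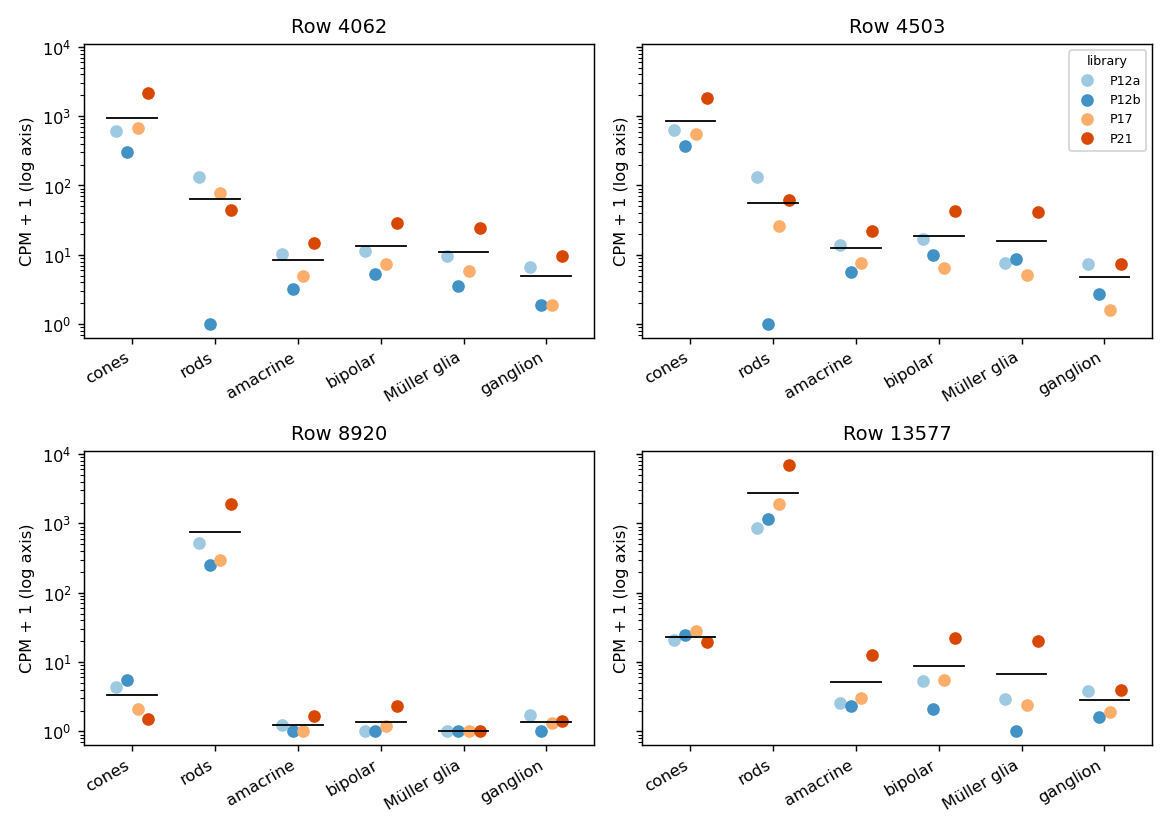
CPM + 1 (log axis) of rows 4062, 4503, 8920 and 13577 in cones, rods and 4 inner retinal types, with 1 point per library and a line at the mean CPM + 1 of the 4 libraries. Rows 4062 and 4503 stand highest in cones, at 306 CPM or more, and rows 8920 and 13577 in rods, at 253 CPM or more.

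The same 4 rows were read cell by cell after each cell had been thinned to 1500 UMIs, which left out 209 of the cones and 28 of the rods as too shallow. Row 13577 was detected in 86.7%, 64.3%, 83.3% and 100% of rods in P12a, P12b, P17 and P21. In cones it was detected in 2.93%, 1.89%, 1.80% and 2.97%, and in amacrine cells in 0.191%, 0.147%, 0.282% and 1.98%. In the P21 bipolar cells row 13577 was detected in 2.95%, so the P21 cones did not stand above that background. Most of the thinned rods of each library thus held a UMI of this row, while few cones did, although the interval of the 14 P12b rods ran from 38.8% to 83.7%. Row 8920 was detected in 33.3%, 42.9% and 29.2% of rods in P12a, P12b and P17 and in 91.3% at P21 (95% Wilson interval 82.3% to 96.0%, 69 cells). The intervals of the earlier rods were wide, 15.2% to 58.3% in P12a, 21.4% to 67.4% in P12b and 14.9% to 49.2% in P17. None reached the P21 value. These intervals cover counting error among cells and not the spread between libraries. With a single library at P21, age and library cannot be told apart. Before thinning the shares of rods were 56.2%, 42.9%, 32.3% and 91.0%.

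Row 4062 was detected in 53.1%, 37.7%, 62.2% and 93.9% of thinned cones in the same order of libraries. It was detected in 13.3%, 0%, 4.17% and 5.80% of thinned rods, which were 2 of 15, 0 of 14, 1 of 24 and 4 of 69 cells. Row 4503 was detected in 61.1%, 42.6%, 55.3% and 92.9% of thinned cones and in 13.3%, 0%, 4.17% and 7.25% of thinned rods. Amacrine cells, whose median depth was 2094, 3598, 2981.5 and 2457.5 UMIs, held a UMI of row 4062 in 1.46%, 0.736%, 0.452% and 2.54% of cells. At P21 the intervals overlapped, 2.28% to 14.0% in rods against 1.84% to 3.5% in amacrine cells, and so did those at P17, 0.739% to 20.2% against 0.229% to 0.889%. In P12b the 0 of 14 rods allow a share of up to 21.4%. In these 3 libraries a share of rods above that of amacrine cells was thus neither shown nor excluded at this depth. No test of these shares was run. In P12a the interval of the rods, 3.74% to 37.9%, lay above that of the amacrine cells, 0.977% to 2.19%, and rested on 2 rods. The 76 CPM of the P17 rods came from 1 of 31 rods, and 4 of the 16 P12a rods had fallen nearest the cone profile in the check of the annotation. Without 340 cones and 4 rods of more than 2 times the median UMI count of their library and type, the log2 difference of row 4062 was 5.89 in place of 4.51. Whether rods with these UMIs were doublets with a cone was not tested directly. Before thinning the shares for row 4062 were 73.5%, 67.4%, 80.2% and 97.7% in cones and 12.5%, 0%, 3.23% and 6.74% in rods. Counting error is all that the intervals and limits given here cover.

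Together the called rows made up a modest part of the mRNA of each type. The 154 rows called higher in cones held 5.59%, 4.68%, 6.76% and 10.6% of the cone UMIs in P12a, P12b, P17 and P21. They held 3.26%, 2.04%, 2.73% and 2.87% of the rod UMIs, and between 1.83% and 3.85% in the 4 inner types. The rod share of these rows thus lay within the range of the inner types. The 84 rows called higher in rods held 2.35%, 2.63%, 3.18% and 7.60% of the rod UMIs. They held 0.556%, 0.738%, 0.686% and 0.816% of the cone UMIs, and between 0.338% and 0.584% in the inner types. Means over libraries were 6.91% ± 2.60 in cones for the first set and 3.94% ± 2.46 in rods for the second (SD, n = 4). The 95% Wilson intervals of the rod shares were at most 0.179 percentage points to either side. They treat each UMI as an independent draw and cover neither the spread between cells nor that between libraries. Since the rows were chosen on the cone and rod sums, the contrast between cones and rods is a description with no test.

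**Figure D3:**
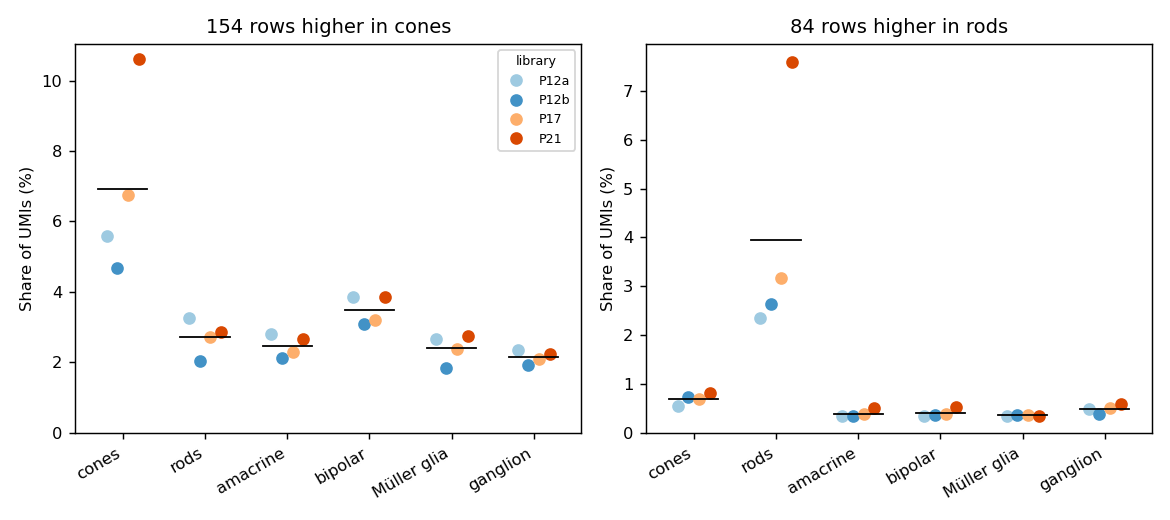
Share of all UMIs (%) held by the 154 rows called higher in cones (left) and by the 84 rows called higher in rods (right) in each of 6 types, with 1 point per library and a line at the mean of the 4 libraries. The P21 library stands highest for the first set in cones, at 10.6%, and for the second set in rods, at 7.60%.

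The called rows did not stand in one place relative to the inner retina. The 4 inner types were amacrine, bipolar, Müller glial and ganglion cells, which had at least 10 cells in each library. Of the 154 rows higher in cones, 103 (66.9%) had a mean CPM in cones above that of all 4 inner types, against 27.0% of all tested rows. In rods, 50 of these 154 rows (32.5%) were above all 4 inner types, 69 (44.8%) within their range and 35 (22.7%) below them, against 33.9%, 44.6% and 21.5% of all tested rows. For the rows called higher in cones, the rods were therefore placed about as they were for any tested row. Of the 84 rows higher in rods, 72 (85.7%) had a mean CPM in rods above that of all 4 inner types, against 33.9% of all tested rows. In cones, 39 of these 84 rows (46.4%) were above all 4 inner types, 37 (44.0%) within their range and 8 (9.52%) below them, against 27.0%, 59.7% and 13.3% of all tested rows. These placements are descriptions, since the cone and rod levels had chosen the rows.

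Rows called in 3 libraries were then read in the library left out, which had no part in the call. With P12a left out, 77 rows were called higher in cones and 63 higher in rods, and 69 and 52 of them had the same sign in P12a. With P12b left out, 61 of 63 and 48 of 58 rows kept their sign in P12b. Of all rows in these fits, 55.4% in P12a and 54.8% in P12b were higher in cones than in rods and 44.5% and 45.2% lower, so these shares stand above the shares of all rows. With P17 left out, the same sign was found in P17 for 40 of 40 rows higher in cones and 27 of 29 higher in rods. With P21 left out, it was found in P21 for 51 of 56 and 40 of 41 rows. Of all rows in these fits, 54.8% in P17 and 49.6% in P21 were higher in cones and 45.2% and 50.4% lower. The median log2 ratio of cone to rod CPM, each with 100 CPM added, was 0.48, 0.78, 1.20 and 1.09 for the rows called higher in cones, read in P12a, P12b, P17 and P21. For the rows called higher in rods it was −0.59, −0.68, −0.99 and −1.03, against a median between 0 and 0.05 over all rows. Each library therefore showed the direction that the other 3 gave for most of the called rows. The annotation had used the cells of all libraries, so this reading is independent of the calls but not of the annotation.

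**Figure D4:**
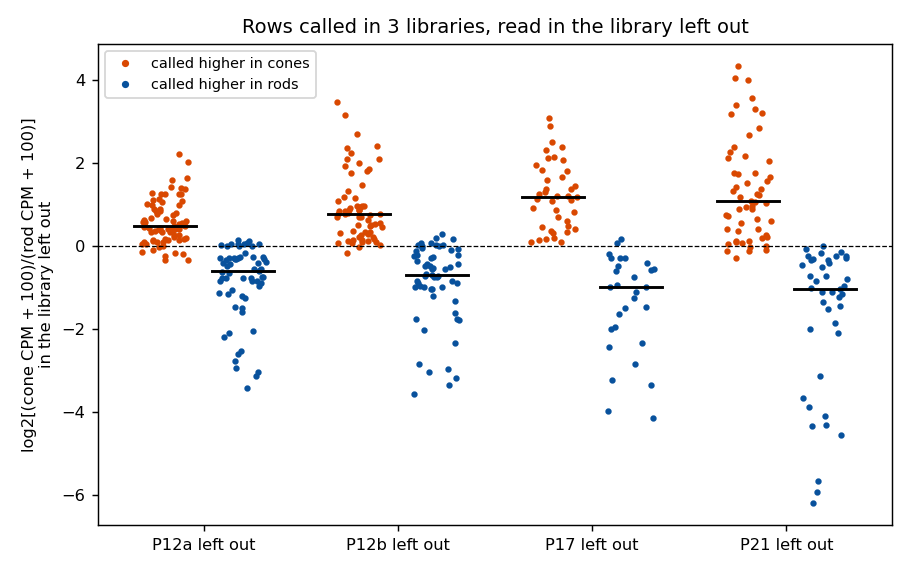
Log2 ratio of cone to rod CPM, each with 100 CPM added, in the library left out, for rows called in the other 3 libraries. Orange points were called higher in cones, blue points higher in rods, thick bars are medians and points are spread sideways for display. Medians lie between 0.48 and 1.20 for the first and between −1.03 and −0.59 for the second.

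The levels of the called rows were often highest at P21. Among the rows higher in cones, 84 of 154 (54.5%) had their highest cone CPM at P21, against 23.8% of all tested rows. In 43 of them (27.9%) the lowest cone CPM was at P21, against 42.3% of all tested rows. Among the rows higher in rods, 49 of 84 (58.3%) had their highest rod CPM at P21, against 20.3% of all tested rows. In 17 of them (20.2%) the lowest rod CPM was at P21, against 19.2% of all tested rows. P21 held the most cones and rods, and its values had entered the calls. P21 is 1 library, so age and library cannot be told apart at that age.

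Whether the cone-rod difference itself changed with age was tested as an interaction of type with age class, the P17 and P21 libraries against the P12 libraries. No row passed in edgeR's quasi-likelihood test (0 of 8813, 0%), with 482 rows at an unadjusted p below 0.05. DESeq2 called 1 row, edgeR's default quasi-likelihood fit 18, and the latter with robust spread 7. With 2 libraries in each class and as few as 14 rods, changes in low rows were not detectable at this depth.

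The row called by DESeq2 was row 12930. It had 132, 69.1, 177 and 5050 CPM in the rods of P12a, P12b, P17 and P21, from 5, 3, 14 and 828 UMIs. In cones it had 4.89, 0.758, 1.14 and 2.76 CPM. Rods were higher in all 4 libraries, and the P21 rods stood apart from the other rods. After thinning, row 12930 was detected in 26.7%, 14.3%, 12.5% and 89.9% of rods, the last being 62 of 69 cells (95% Wilson interval 80.5% to 95%), so that most P21 rods held it. In the P21 amacrine cells it was detected in 0.636% of cells. The change of the log2 difference was −5.59 (SE 1.10, adjusted p = 0.757 in edgeR's quasi-likelihood test and 0.0359 in DESeq2). The P17 rods, with 1 library, stood close to the P12 rods.

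The other rows described here also had the smallest unadjusted p values of their direction in the edgeR test. Only rows with a mean of at least 200 CPM were considered. Row 30931 had 551, 602, 751 and 1796 CPM in cones and 579, 599, 367 and 738 CPM in rods, so that the types were alike at P12 and cones were higher at P17 and P21. Its log2 difference was larger at the later ages by 0.99 (SE 0.24, edgeR adjusted p = 0.757). Row 7373 had 244, 323, 273 and 349 CPM in cones and 158, 299, 63.3 and 67.1 CPM in rods, with a change of 1.75 (SE 0.44, edgeR adjusted p = 0.757). Row 10959 had 542, 186, 165 and 83.1 CPM in cones and 290, 69.1, 342 and 140 CPM in rods, with a change of −2.19 (SE 0.38, edgeR adjusted p = 0.757). Cones were the higher type in both P12 libraries and rods in P17 and P21 for row 10959, but the rod values rested on 11, 3, 27 and 23 UMIs. In ganglion cells, where it was most abundant, row 10959 stood at 2092 to 4789 CPM.

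**Figure D5:**
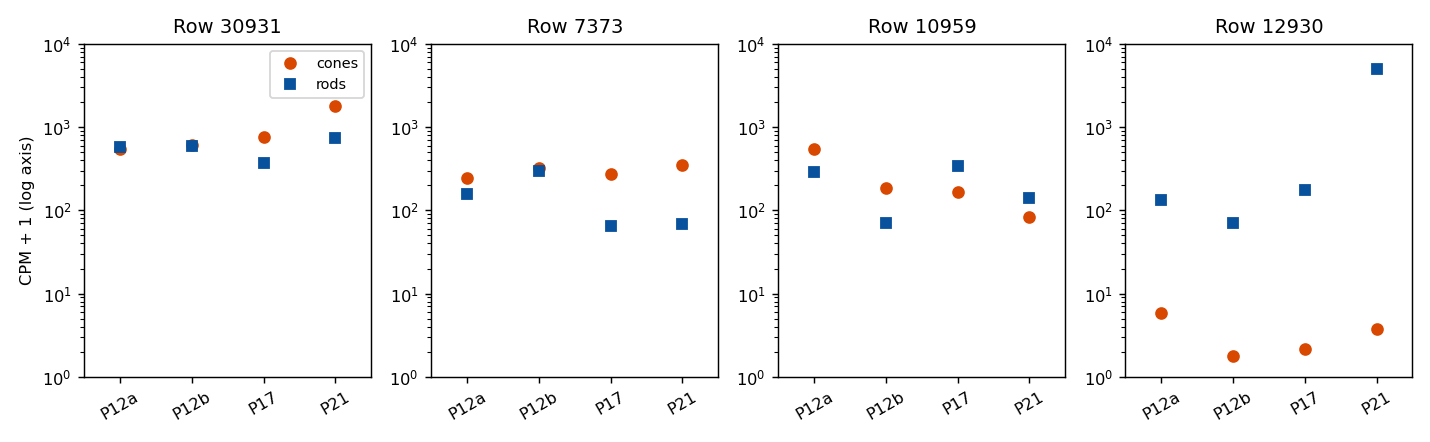
CPM + 1 (log axis) in cones (orange circles) and rods (blue squares) of P12a, P12b, P17 and P21. The rows had the smallest p of their direction for a change of the cone-rod difference with age, among the more abundant rows. Row 12930 reaches 5050 CPM in the P21 rods against 177 CPM or less in the other rods.

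Photoreceptors as a class were compared with the inner retina in 1 contrast, the mean of cones and rods against the mean of the 4 inner types, over 24 sums with the library as a block. A row that is high in only one of the types can pass this contrast, so the called rows are not all shared by cones and rods. Of 14727 tested rows, 4385 (29.8%) passed in edgeR's quasi-likelihood test, 1613 (11%) higher and 2772 (18.8%) lower in photoreceptors. Many more rows were called here than for cones against rods. The counts came from unlike fits, with 24 sums here and 8 there, and from different sets of tested rows. They therefore do not rank the size of the differences. The balance turned in limma-voom, with 2829 rows higher and 2271 lower.

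Row 25928 was the row with the largest positive difference among 141 rows with at least 200 CPM in every cone and rod sum. It had 295, 307, 266 and 498 CPM in cones and 395, 599, 418 and 646 CPM in rods of P12a, P12b, P17 and P21. In the inner types it lay between 0.699 and 8.40 CPM in every library. Every photoreceptor value was above every inner value. The log2 difference was 6.98 (SE 0.16, edgeR adjusted p = 1.51e-21).

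Row 1059, the next, had the same order of libraries in both types, with P12b lowest and P21 highest. It had 419, 308, 766 and 2408 CPM in cones and 527, 253, 823 and 1714 CPM in rods, against 1.12 to 61.4 CPM in the inner types. The log2 difference was 6.52 (SE 0.16, edgeR adjusted p = 1.73e-20). Its cone and rod levels were 975 ± 975 and 829 ± 634 CPM (SD, n = 4). Within libraries, rods were higher in P12a and P17 and cones in P12b and P21.

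The rows described as lower in photoreceptors, chosen from 78 with at least 200 CPM in every inner sum, had UMIs in every cone and rod sum. Row 30207 had 813, 277, 326 and 98.6 CPM in cones and 711, 415, 418 and 183 CPM in rods, against 472 to 5397 CPM in the inner types (log2 difference −2.19, SE 0.17, edgeR adjusted p = 1.50e-10). Row 8959 had 280, 142, 185 and 229 CPM in cones and 237, 69.1, 228 and 293 CPM in rods, against 239 to 5011 CPM in the inner types (log2 difference −2.09, SE 0.14, edgeR adjusted p = 8.18e-12). Both rows were highest in ganglion cells, and in both the ranges of cones and rods overlapped. The inner types were far apart for row 8959, with means of 313 CPM in Müller glia and 4260 CPM in ganglion cells. At P21 its 293 CPM in rods exceeded the 281 CPM in Müller glia.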

How the data were processed

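Reads had been aligned and counted with CellRanger 3.1.0 against the HiC_Itri_2 assembly, and cells analysed in Seurat 4.0.4, as the study's methods state. The submitters' processing notes also name GRCm38. The authors deposited UMI counts per gene row and cell, not normalized, with a table of time point and cell type. Embedding coordinates and the unpaired gene names were not used. A library was a time point plus a cell-name suffix, and pairs its cones with its rods. All deposited cells were kept, possible doublets included, and the fits were repeated without 340 cones and 4 rods above 2 times the median UMI count of their library and type.

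Counts were summed per library and type, filtered with filterByExpr, scaled by TMM and tested in edgeR 4.0.16 (R 4.3.3) with glmQLFit and glmQLFTest, the library as a block and Benjamini-Hochberg adjustment over all tested rows. The spread used the small-count adjustment (legacy=FALSE). This was chosen over the installed default after the called counts of several fits had been seen. The reason was that the default drew the spread of a row wholly from other rows in both cone-rod fits. DESeq2 1.42.0 and limma 3.58.1 were alternatives. The SE is the log2 difference divided by the square root of F. CPM took all UMIs of a sum as 1000000, with no TMM factor. Rows were named by at least 200 CPM in every sum of the higher type, the same sign in every library and the largest log2 difference. For the interaction they were named by a mean of 200 CPM over the 8 sums and the smallest p. Both rules gave 2 rows per direction. Profiles for the check of the annotation used the 2000 most variable rows. The count tests were also run on simulated sums with the same spread for every row. That run does not show how they behave where rows differ in spread. The cells and rules were chosen with earlier results of these data known.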

Additional observations from a re-analysis of the deposited data

Results flagged for a closer look

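The lowest and highest of the 4 libraries were compared with the rest for 31 sets of values from cones and rods, and 5 had 1 library farther from the others than Dixon's 95% critical value allows. Chance flags about 1 in 20 such sets, the sets are not independent, and most of the rows had been chosen for large differences. In all 5 the P21 library was the highest. In rods these were row 8920 (1903 CPM, against 527 CPM or less in the others), row 13577 (7050 CPM, against 1887 CPM or less), row 12930 (5050 CPM, against 177 CPM or less) and the share of UMIs in the 84 rows called higher in rods (7.60%, against 3.18% or less). In cones it was row 30931 (1796 CPM, against 751 CPM or less). With 1 library at P21, age and library cannot be told apart.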

How the results depend on the processing

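Cone against rod, 238 rows passed. The fit was chosen after these counts had been seen: the default edgeR fit gave 366 rows, the default with robust spread 356, the adjusted fit with robust spread 280 and limma-voom 193, and these, with the reading of rows in a library left out, were added after seeing the data. DESeq2 gave 133, no filter on low counts 999 of 24454 rows, a spread shared with all types 396 of 14727, cone sums thinned to the rod total 49 of 999, and no replicate block 40. RLE scaling gave 239, a mean of at least 50 CPM 266, and leaving out high-UMI cells 265. Without 1 library the count was 69 (without P17) to 140 (without P12a), with 121 without P12b and 97 without P21. The share of called rows higher in cones was 64.7%, 87.9% without the filter, 80.6% with the shared spread, 51.9% with the stricter filter, 49.2% in limma-voom, 44.4% in DESeq2 and 40.0% without the block. The median log2 difference over all tested rows was 0.15, and 0.08 under RLE.

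For the change with age, 0 rows passed, 18 in the default edgeR fit, 7 with its robust spread and 1 in DESeq2. The median over all rows was −0.28, and −0.14 under RLE. Leaving out either P12 library left 0. P17 and P21 were not left out. Row 12930 passed in the default fit (adjusted p = 1.80e-11), with its robust spread (9.02e-11) and in DESeq2 (0.0359), and row 10959 in the default fit (0.00203) and with its robust spread (0.00500).

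Rows 8920 and 13577 missed the threshold with robust spread in the adjusted fit and in the default fit (adjusted p = 0.125 and 0.121). Rows 4062 and 4503 passed in all 16 alternatives. Without P21 the log2 differences of rows 4062, 4503, 8920 and 13577 were nearer 0, at 3.24, 3.81, −6.52 and −5.54. Without the high-UMI cells they were 5.89, 4.94, −8.91 and −7.34. Photoreceptors against inner types gave 3205 to 5100 called rows under 12 alternatives, including no replicate block (3402), and 3205 (without P17) to 3847 (without P12b) without 1 library. The log2 ratio of UMIs per cell stayed between 0.46 (without P12b) and 0.72 (without P21), and was 0.49 without high-UMI cells. No named row changed direction. Depth was limited in the sums of 14 to 89 rods per library: at P12 a row needed about 69.1 to 79.0 CPM for 3 rod UMIs.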
